A study of Mus musculus with 2 samples.

Results

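Chemokines and their receptors were followed in regulatory T (Treg) cells, CD4 T cells that restrain immune responses. The members were all gene probes of the array whose gene name is that of a chemokine (Ccl, Cxcl, Xcl or Cx3cl followed by a number) or of a chemokine receptor (Ccr, Cxcr, Xcr, Cx3cr, Ccrl or Ackr followed by a number). This gave 57 genes of 30175 gene names, of which 35 were ligands with 47 probes and 22 were receptors with 27 probes. The study compared mRNA of Treg cells sorted from mice 5 weeks old, with 1 single-colour Agilent array per genotype, Nr4a-deficient or wild-type by its label. The labels call the mutant animals Nr4a-TKO mice. The Nr4a family, with the members Nr4a1, Nr4a2 and Nr4a3, consists of nuclear receptors that T cells switch on after antigen contact. The labels name no treatment of the animals or cells, and say that cells of both groups went into lysis straight from the sorter. The allele or Cre line behind the deficiency, the strain, the organ, the markers of the sort and the number of animals pooled are not given in the sources used here.

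Chemokines are small secreted proteins that guide migrating cells along gradients. They are named for the spacing of their first cysteines, as CC, CXC, C and CX3C chemokines. Their receptors are seven-pass membrane proteins that signal through inhibitory G proteins, and most bind several ligands. Treg cells use Ccr7 to enter lymph nodes and receptors such as Ccr4, Ccr6, Ccr8 and Ccr10 to reach skin, mucosa and inflamed sites, and activated T cells secrete Ccl3, Ccl4, Ccl5 and Xcl1.

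With 1 array per genotype, no difference between genotypes was tested and no p-value is given. Values are intensities in arbitrary units, and differences are log2 values after division by the array's 75th percentile, positive where the library labelled Nr4a-deficient read higher. Intensities given as a pair have the wild-type library second. Higher or lower means at least 2-fold, which is 1 on the log2 scale. A gene well above background on only 1 array has a bound, written "at least". Intensities of different probes are not comparable, so each gene is compared only with itself. Among probes printed in 10 spots, the SD of a difference between the arrays was 0.067 at scaled log2 levels over 1, 0.075 from -1 to 1, 0.10 from -3 to -1 and 0.29 for dimmer ones. This is spot noise within an array and leaves out the spread between animals and sorts.

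The libraries themselves differed in ways that bear on every result. Of the 3 targeted genes, Nr4a1 (80407 and 51441, a difference of 0.86) and Nr4a2 (3134 and 1850, 0.98) were brighter in the library labelled Nr4a-deficient, within 2-fold but against the label. The Nr4a3 probe (23.7 and 72.0) was too dim on both arrays to give a value. The deleted stretches are not named in the labels and these probes may lie outside them, so the check is open to that limit and the text keeps to "the library labelled Nr4a-deficient". T cell genes were bright and close between the arrays, with none of 10 past 2-fold. Of 12 Treg markers 2 were lower, Ikzf4 (4283 and 31789, -2.67) and Il2ra (-1.27), and the median of the 12 was -0.43. The probe of Foxp3, the lineage factor, was dim on both arrays (74.5 and 85.4). The 8 spike-in RNAs lay 0.37 ± 0.057 (SD, n = 8) above 0 in the scaled comparison. On the spike-in scale a difference measured on both arrays is therefore 0.37 lower, and the bounds of Ccl12, Ccl20 and Ccr1l1 fall to 0.

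Each probe is a strand of 60 bases, and a stretch of 30 bases (the first 30 where the probe itself matters, the shared part in capitals) is shown for the members on which the results turn. Sequences and positions are those of the array design, on mouse build mm9. The first set holds single probes behind large differences, of 3 ligands and 3 receptors.
Ccl3: catgaactgacaaatgtacaatagatgctt
Ccl4: tattatttatgttttagttataggacgcgt
Ccl8: accagaagtctcaaattctgcagccttgaa
Ccr2: gaagcagggacagaattcttgctttgaaaa
Ccr6: acacgagagcacaaagcaacattgccccaa
Ccr10: ttggatcccttctaaagtcctgctgtgcaa
None of these 6 probes shared a run of 20 bases with a probe of another gene name. The Ccl3 probe lies on chromosome 11 from 83461358 to 83461417, the Ccl4 probe from 83478052 to 83478111 and the Ccl8 probe from 81930108 to 81930167 of the same chromosome. The Ccr2 probe lies on chromosome 9 from 124022948 to 124023007. The Ccr6 probe lies on chromosome 17 from 8449933 to 8449992 and the Ccr10 probe on chromosome 11 from 101034312 to 101034371. Exons and untranslated regions are not given, since no mm9 annotation was used here.

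The second set shows why 2 probes of a gene are not always 2 measurements. The probes of Cxcr6 have 50 bases in common, and a pair of Ccl27a probes has 48 in common.
Cxcr6, probe starting at 123720719: ACAGAGCTTAAGACTTTAACAAATACAAGA
Cxcr6, probe starting at 123720709: aatgtataaaACAGAGCTTAAGACTTTAAC
Ccl27a, probe starting at 41716357: ggtactacaaaaGAAAATGTACTCAAACCC
Ccl27a, probe starting at 41716345: GAAAATGTACTCAAACCCCCAACAGCAAAA
The capitals mark what the partners share within the stretch shown. The Cxcr6 probes lie on chromosome 9 and the Ccl27a probes on chromosome 4.

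Of the 35 ligands, 19 were well above background on at least 1 array. Of these, 5 (26.3%) were higher, 3 (15.8%) were lower and 11 did not reach 2-fold. Across all 18556 genes above background on at least 1 array, 4.71% were higher and 4.93% lower. The 15 ligands measured on both arrays had a median difference of 0.30, against -0.013 over all 16310 genes measured on both. Of the 22 receptors, 17 were above background, of which 7 (41.2%) were higher, 4 (23.5%) lower and 6 did not reach 2-fold. The median of the 15 receptors measured on both arrays was 0.21. Counting only genes above background on both arrays, 4 of 15 ligands were higher and 2 lower. Of 15 receptors, 6 were higher and 4 lower, against 2.67% and 3.05% of all genes. On the spike-in scale, 5 ligands were higher and 4 lower, 4 receptors were higher and 5 lower, and over all genes the shares became 3.04% and 8.05%.

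**Figure D1:**
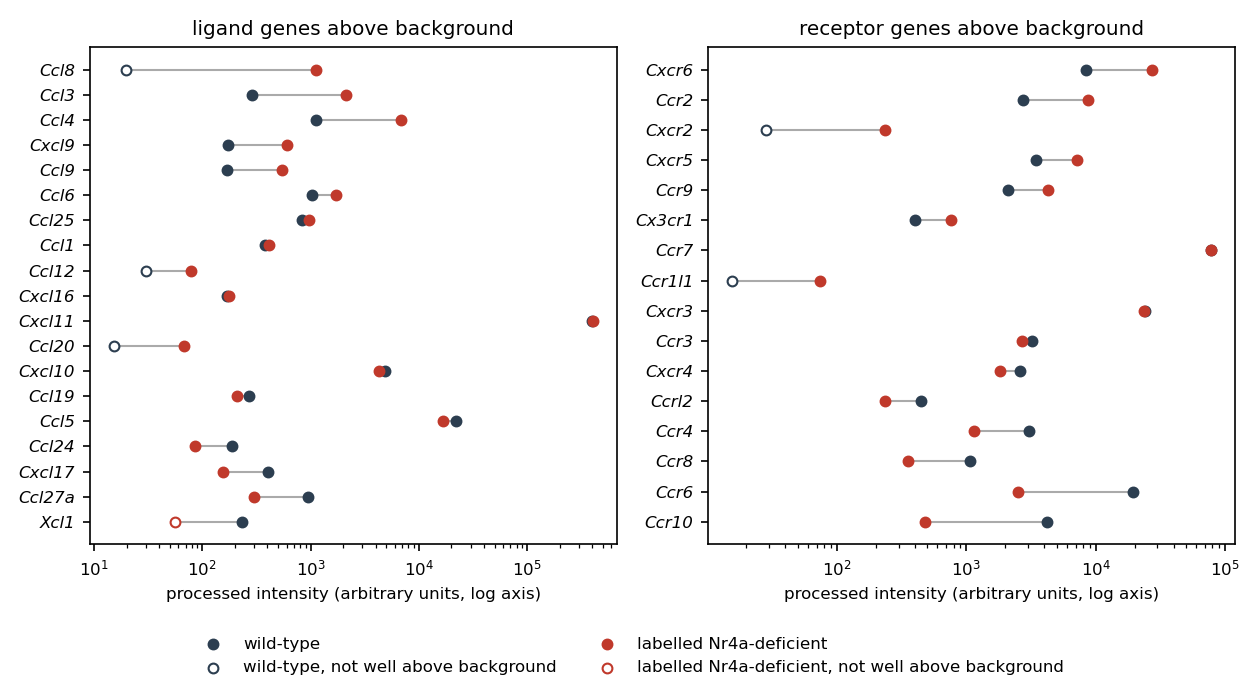
Processed intensity (log axis) of ligand and receptor genes well above background, at each gene's brightest probe, in the wild-type library and the library labelled Nr4a-deficient (1 array each, no error bars). Open circles were not well above background; a line joins the 2 values of a gene, and lines are long for Ccl8, Ccl3 and Ccl4 at the top and for Ccr6 and Ccr10 at the bottom.

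The inflammatory CC ligands related to Ccl3, made by activated T cells, NK cells and macrophages, split. Ccl3 (macrophage inflammatory protein 1 alpha) read 2118, against 286 in the wild-type library, 8.60-fold higher (3.10). Ccl4, its neighbour and close relative (macrophage inflammatory protein 1 beta), read 6895 and 1114, 7.19-fold higher (2.85). Both differences were far beyond the spot SD at that brightness, 0.10 for Ccl3 and 0.075 for Ccl4. Ccl5 (RANTES), a chemokine of cytotoxic and memory T cells, was bright on both arrays at 16840 and 22116, a difference of -0.18. Ccl9 and Ccl6, chemokines of mouse macrophages and other myeloid cells, also leaned to the library labelled Nr4a-deficient. Ccl9 read 547 and 169, 3.75-fold higher (1.91). Ccl6 read 1727 and 1023 and stayed just within 2-fold (0.97). So 3 of these 5 ligands were higher and none lower.

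Ccl8, a ligand that draws cells bearing Ccr8 in the mouse, had the largest bound of the family. It read 1114, against 19.7 in the wild-type library, where it was not well above background, and was at least 17.5-fold higher (4.13). With normexp background correction and quantile normalization the bound was 2.89. Ccl1, the other ligand of Ccr8, read 411 and 379 at its brighter probe, a difference of 0.34, and 0.17 at the other, and turned to -0.030 on the spike-in scale. Ccl17 and Ccl22, the ligands of Ccr4, were not above background on either array.

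The interferon-induced ligands of Cxcr3 did not move together. Cxcl9 read 599, against 171 in the wild-type library at its brighter probe, 4.08-fold higher (2.03). Its other probe read 166 and 109, a difference of 0.82, so the probes point the same way but only 1 passes 2-fold, and their mean was 1.42. Cxcl10 differed by 0.050 at its brighter probe (4319 and 4850) and by 0.16 at the other, or -0.32 at the brighter probe on the spike-in scale. The stretches below show the probes of Cxcl9, which do not overlap.
Cxcl9, chromosome 5 from 92752191 to 92752250: atgggatttcattattaacttgatcccatc
Cxcl9, chromosome 5 from 92752796 to 92752855: aagtcgtcgtcgttcaaggaagactacata

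Cxcl11 did not differ by 2-fold at either probe. Its brighter probe read 402377 and 399478, a difference of 0.23, and its other probe, which shares no run of 20 bases with a probe of another name, 35558 and 35800 (0.21). The brighter probe holds a run that also stands in many other probes and resembles B1, an abundant repeat of the mouse genome.
Cxcl11, brighter probe, bases 20 to 49: agccaggGCTACACAGAGAAACCctatctt
The 16 capital bases stand in 12 probes of other gene names, all of them above background with a median difference of 0.15, and within the promoters of 20 genes (0.064% of all promoters). Among the 74 member probes, this probe had the most partners at a run of 20 bases, with 7 probes of other names. The others with any such partner were 1 probe of Ccl27a and 1 of Cx3cr1, with 1 partner each. On the spike-in scale the difference at the brighter probe of Cxcl11 turned to -0.14. The other Cxcl11 probe also holds a repeat-like stretch, with a run of 16 bases that stands in 1 probe of another name. It is therefore not a check free of repeats.

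Of 6 epithelial ligands 4 were detected, of which Ccl27a and Cxcl17 were lower and Ccl25 and Ccl20 did not reach 2-fold. Ccl27a, the skin chemokine that binds Ccr10, read 299, against 954 in the wild-type library, 2.74-fold lower (-1.46). Its other probes lay at -1.52 and -1.31. The genome holds near-identical copies of this gene, and one of its probes shares a run of 20 bases with a probe named Gm13308, so the copy behind the signal is uncertain. Cxcl17, a chemokine of mucosal surfaces, read 155 and 406, 2.25-fold lower (-1.17). It lay at -0.92 with normexp background correction and quantile normalization, under 2-fold. Ccl25, the thymic and intestinal ligand of Ccr9, had 3 probes above background that disagreed. They lay at 0.44 (969 and 832), 0.34 (341 and 314) and -0.86 (81.0 and 171), the last designed on a non-coding RefSeq record.

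Xcl1 (lymphotactin), the C chemokine of activated T and NK cells, was above background only in the wild-type library. It read 56.3, against 232 in the wild-type library, at least 3.55-fold lower (-1.83), and at -1.06 with normexp and quantile normalization. Ccl24, an eosinophil attractant that binds Ccr3, read 86.2 and 190 (-0.92), within 2-fold but lower on the spike-in scale (-1.29). Cxcl16, the transmembrane ligand of Cxcr6, differed by 0.30 (178 and 168), or -0.067 on the spike-in scale. Ccl19, a ligand of Ccr7 made by lymphoid stroma, had 2 probes above background that disagreed in sign, at -0.16 (210.2 and 272) and 0.58 (245 and 190.5).

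Ccl12, a ligand of Ccr2, and Ccl20, the ligand of Ccr6, were detected in the library labelled Nr4a-deficient alone. Ccl12 read 79.4 and 30.3, at least 1.25-fold higher, and Ccl20 read 68.0 and 15.1, at least 1.07-fold higher, so neither bound reached 2-fold. The 16 ligands not above background on either array were Ccl2, Ccl7, Ccl11, Ccl17, Ccl22, Ccl26, Ccl28, Cx3cl1, Cxcl1, Cxcl2, Cxcl3, Cxcl5, Cxcl12, Cxcl13, Cxcl14 and Cxcl15. All 5 ligands of the neutrophil receptor Cxcr2 are among them. No probe of these 16 read over 66.7 in the library labelled Nr4a-deficient or over 56.3 in the wild-type library.

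Receptors were grouped with earlier results of these data known, so a split between groups is a description only. Of 5 receptors of skin and mucosal homing, 4 were lower and 1 higher, where 4.93% of all genes were lower and 4.71% higher. Ccr10, the receptor for Ccl27a and Ccl28, read 483, against 4205 in the wild-type library, 7.49-fold lower (-2.90). Ccr6, the receptor of Th17 cells, of a share of Treg cells and of B cells, read 2494 and 19424, 6.70-fold lower (-2.74). These 2 had the lowest differences of all members, far beyond the spot SD of 0.075 for Ccr10 and 0.067 for Ccr6. Ccr8, a receptor of Treg cells in skin and tumours, read 353 and 1073 at its brighter probe, 2.61-fold lower (-1.39), and lay at -1.16 at the other. Ccr4, which binds Ccl17 and Ccl22 and marks skin-homing and Th2 cells, read 1159 and 3042, 2.26-fold lower (-1.18). All 4 stayed lower by 2-fold under every alternative scale, background correction and filter tried. Ccr9, the receptor of thymocytes, gut-homing T cells and plasmacytoid dendritic cells, was the exception. It read 4284 and 2117, 2.35-fold higher (1.23), with 1.04 at its other probe and 0.87 on the spike-in scale.

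Of the 8 detected receptors grouped as those of effector and inflammatory cells, 5 were higher and none lower, where 4.71% of all genes were higher. Cxcr6, a receptor of effector and tissue-resident T cells, read 27143, against 8438 in the wild-type library, 3.74-fold higher (1.90). Its second, overlapping probe gave 1.86. Ccr2, the receptor of inflammatory monocytes and of effector T cells, read 8813 and 2754, 3.72-fold higher (1.90). Cxcr2, best known from neutrophils, was not well above background in the wild-type library, with 236 and 28.6, at least 3.72-fold higher (1.90).

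Cx3cr1, a receptor of monocytes and cytotoxic effector cells, gave different answers from its 2 probes. The brighter probe read 764 and 400, 2.22-fold higher (1.15), or 0.79 on the spike-in scale. The other read 64.6 and 82.2, a difference of -0.13, and the mean of both was 0.51, so this call rests on 1 probe. The brighter probe also shares a run of 20 bases with a probe named TC1715571, which lay at 1.17. The stretches below show that the probes do not overlap, and both lie on chromosome 9.
Cx3cr1, from 119957811 to 119957870 (brighter): cgtgcctagagtgtgtctatcccacttgta
Cx3cr1, from 119959018 to 119959077: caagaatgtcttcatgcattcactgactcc

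Cxcr3 and Ccr3 did not differ by 2-fold, and Ccr1l1 had only a bound under 2-fold. Cxcr3, the Th1-associated receptor of Cxcl9, Cxcl10 and Cxcl11, read 23825 and 24009, a difference of 0.21, or -0.16 on the spike-in scale. Ccr3, the eotaxin receptor, differed by -0.032 (2706 and 3216). Ccr1l1, a relative of Ccr1, read 74.5 and 15.6, the latter not well above background, and was at least 1.17-fold higher. Without the bound its difference was 2.48, so the bound does not show that it stayed within 2-fold. The 5 receptors not above background on either array were Ccr1, Cxcr1, Xcr1, Ccrl1 (now Ackr4) and Cxcr7 (now Ackr3).

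Of the receptors for lymphoid tissue, Cxcr5, which leads follicular T cells and B cells into B cell follicles, was higher. It read 7161, against 3450 in the wild-type library, 2.41-fold higher (1.27), or 0.90 on the spike-in scale. Ccr7, the lymph node entry receptor of naive and central memory cells, read 78380 and 77647, a difference of 0.23, or -0.14 on the spike-in scale. Cxcr4, the receptor of Cxcl12, differed by -0.29 (1824 and 2589). Ccrl2, an atypical receptor that does not signal through G proteins, lay at -0.73 (234 and 450), and at -1.09 on the spike-in scale.

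**Figure D2:**
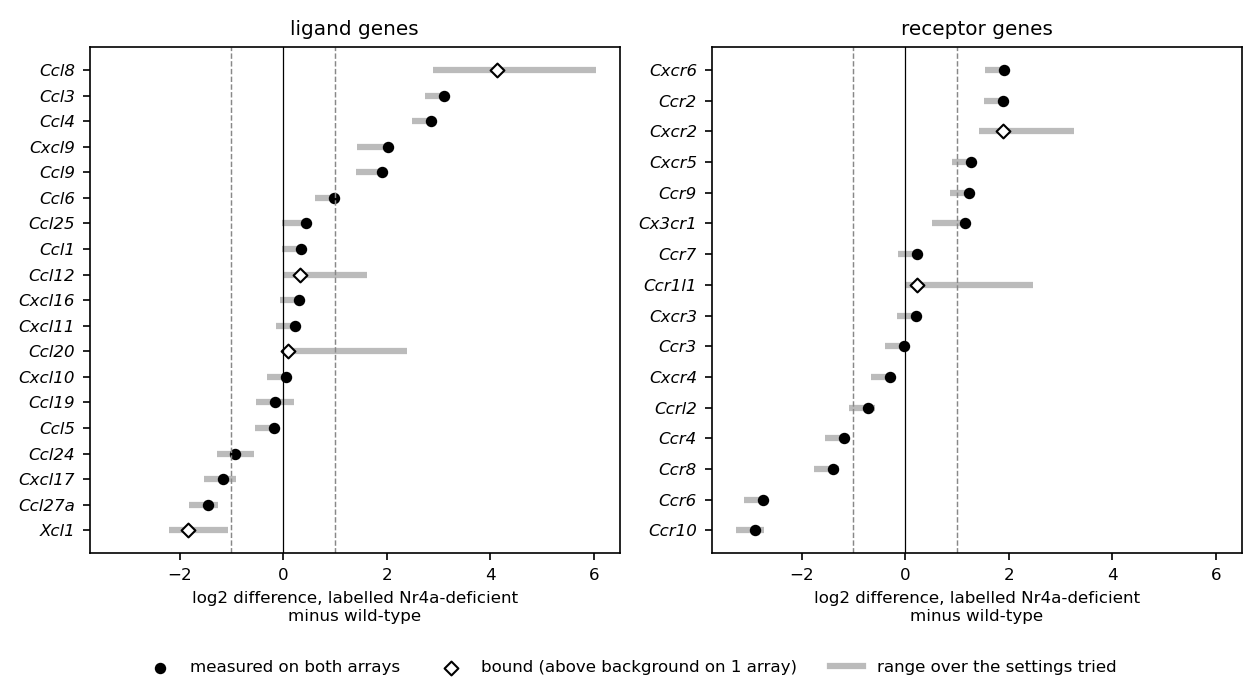
Log2 difference between the arrays (1 per genotype, positive where the library labelled Nr4a-deficient read higher) of ligand and receptor genes above background, with 2-fold as dashed lines. Points are measured values, diamonds are bounds, and grey bars give the range over the settings tried; Ccr10, Ccr6, Ccr8 and Ccr4 keep their whole bar below -1, and Ccl3, Ccl4 and Ccl8 keep theirs above 2.

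Many of these genes lie in clusters, a property that the choice by name did not use. On mm9, the probes of Ccr9, Cxcr6, Xcr1, Ccr1, Ccr1l1, Ccr3 and Ccr2 lie in this order in a receptor cluster on chromosome 9, from 123680935 to 124023007. Of these, Ccr9, Cxcr6 and Ccr2 were higher, Ccr3 differed by -0.032 and Ccr1l1 had a bound of 1.17-fold. Ccr1l1 and Ccr3 lie between Cxcr6 and Ccr2. Fyco1, a gene of another family inside the stretch, differed by 0.013, and the 3 other genes detected within 250 kb of the cluster lay between -0.61 and -0.053. The lower receptors Ccr4 and Ccr8 lie elsewhere on chromosome 9.

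The CC ligands of chromosome 11 form 2 groups. From Ccl5 to Ccl4 (83339296 to 83478111), all 5 ligands were detected. Going from one end to the other, the values were -0.18 for Ccl5, 1.91 for Ccl9, 0.97 for Ccl6, 3.10 for Ccl3 and 2.85 for Ccl4. The predicted gene Gm5451, whose probe lies beside that of Ccl3, differed by -0.23. The 11 other genes detected within 250 kb ranged from -0.22 to 2.45. Of these, Gm11428 was higher (1843 and 391, 2.45), as were Expi and Rasl10b, with log2 bounds of 1.06 and 1.02. The rest lay within 2-fold. In the second group, from Ccl2 to Ccl1 (81850650 to 81990510), only Ccl12, Ccl8 and Ccl1 of 6 ligands were detected, and Ccl8 was the only one past 2-fold.

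**Figure D3:**
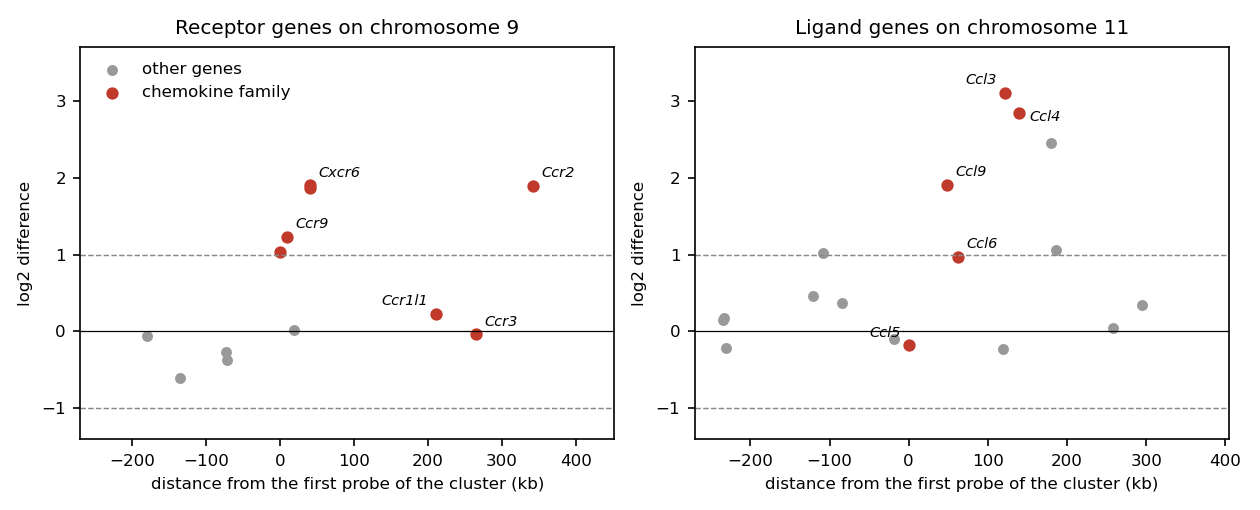
Log2 difference of probes above background against distance (kb) from the first probe of the cluster, for the receptor cluster of chromosome 9 (from Ccr9) and the ligand cluster of chromosome 11 (from Ccl5), with 2-fold as dashed lines. Red points are chemokine family probes and grey points other genes, with bounds drawn in the same way as measured values. Ccr9, Cxcr6 and Ccr2 lie above 1 with Ccr3 near 0 between Cxcr6 and Ccr2. The point of Ccr1l1 (0.23) is a bound.

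Genes that carry the signal of these receptors into the cell were counted in the same way. Of 81 listed G proteins, effectors, kinases, arrestins, RGS proteins and integrins, 79 were detected, 2 were higher, 1 was lower and 76 lay within 2-fold, where 4.71% of all genes were higher and 4.93% lower. Their median over the 78 measured on both arrays was 0.079, against -0.013 over all genes. Counting only genes above background on both arrays, 1 of 78 was higher and 1 lower, against 2.67% and 3.05% of all genes. Named for their role after their values were seen, Gnai2, the main inhibitory G protein alpha subunit of lymphocytes, read 81346 and 83603 (0.18), and Dock2, the Rac activator that lymphocytes need for migration, read 5045 and 5491 (0.095). On the spike-in scale they lay at -0.19 and -0.27.

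The genes past 2-fold in that list were Pik3cg, Rgs18 and Rgs16. Pik3cg, the PI3 kinase subunit driven by G protein beta and gamma subunits, read 2058 and 1042, 2.30-fold higher (1.20), or 0.83 on the spike-in scale. Its regulatory partner Pik3r6 lay just within 2-fold at 0.93 (968 and 591). The RGS genes encode proteins that shorten G protein signals, and 2 of 8 passed. Rgs18, known from platelets and myeloid cells, was not well above background in the wild-type library, with 325 and 16.8, at least 5.11-fold higher. Rgs16, induced in activated T cells, read 2051 and 5000.5, 2.10-fold lower (-1.07), and Rgs1, which restrains lymphocyte migration, lay just within 2-fold at -0.99 (10655 and 24523).

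Markers of other cells were present in both libraries and differed between them. Over all genes above background on at least 1 array, 4.71% were higher and 4.93% lower. Of 16 dendritic cell markers, 15 were detected and 10 were higher, none being lower, with a median of 2.04. Their summed intensities were 293919 and 200872, of which Siglech gave 136839 and 147869. Summed intensities here and below are not scaled and add probes that are not comparable, so the brightest probes lead them. Xcr1, a member of both lists that marks cross-presenting dendritic cells, was the one not detected. Of markers of plasmacytoid dendritic cells, Siglech lay at 0.11 and Tcf4 was higher (2.92). Of 15 macrophage and monocyte markers on the array, all detected, 10 were lower and 1 higher, with a median of -1.36 and summed intensities of 64159 and 167196. C1qc was lower (-1.60) and Lyz2 higher (1.03). B cell markers had 4 of 13 higher and none lower (median 0.85, summed 48805 and 27670), although Pax5 and Blk were not above background. Markers of NK and CD8 T cells had 3 of 11 higher and 1 lower (median 0.42, summed 32016 and 26654), with Ncr1, Klrc1 and Klra7 not above background. On the spike-in scale the medians were 1.67 for dendritic cell and -1.73 for macrophage and monocyte markers. They were 0.48 for B cell and 0.057 for NK and CD8 T cell markers.

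Such cells also express several members. Ccl3 and Ccl4 are made by NK cells and myeloid cells, Ccl8, Ccl9 and Ccr2 by monocytes and macrophages, Cxcr5 and Ccr6 by B cells, and Ccr9 by plasmacytoid dendritic cells. Members and lists went together in some cases and apart in others, where 4.71% of all genes were higher and 4.93% lower. Of 13 B cell markers 4 were higher, as was Cxcr5, while Ccr6 was lower. Ccl3 and Ccl4 were higher, as were 3 of 11 NK and CD8 T cell markers, with 1 lower. Ccl8, Ccl9 and Ccr2 were higher, while 10 of 15 macrophage and monocyte markers were lower and 1, Lyz2, was higher. Ccl3, Ccl4, Ccl8, Ccl9 and Ccr2 went the same way as the dendritic cell list, with 10 of 15 markers higher and none lower. Granulocyte and mast cell markers, beside Cxcr2, had 3 of 8 higher and none lower (median 0.59, summed 202252 and 215720, of which Csf3r gave 196662 and 211731), and 4 further markers, Cpa3, Fcer1a, Mcpt8 and Ms4a2, were not above background. Erythroid and platelet markers had 6 of 7 lower (median -1.81), thymocyte markers 2 of 7 lower (median -0.087), and stromal and endothelial markers 2 of 9 higher and 1 lower (median 0.32). The part of other cells in these results was not tested. In a sorted population measured in bulk, fewer cells of a type and less RNA per cell cannot be told apart.

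**Figure D4:**
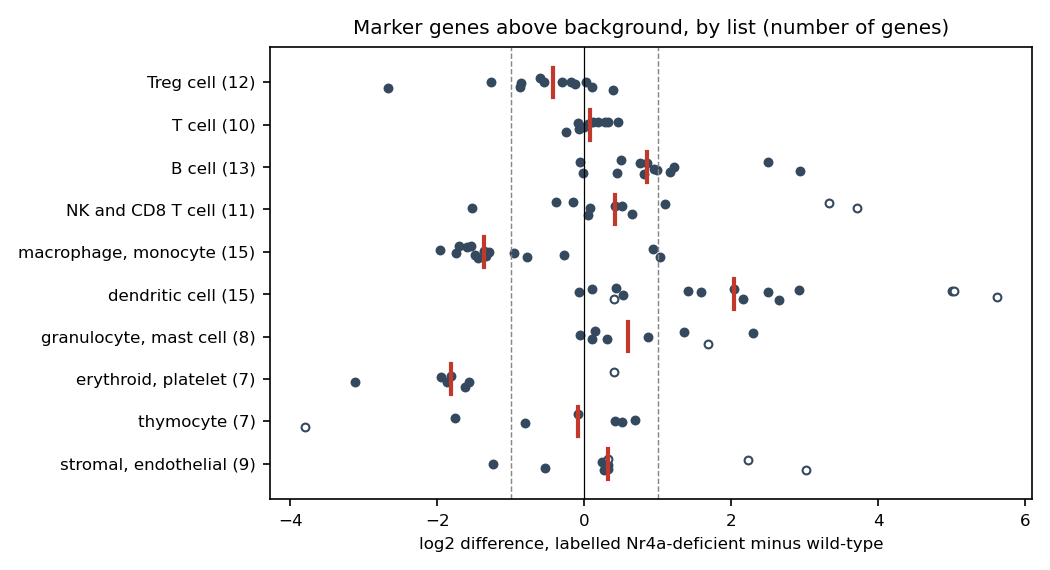
Log2 difference between the arrays (positive where the library labelled Nr4a-deficient read higher) of each marker gene above background, by list, with the number of genes in brackets; open circles are bounds, red bars are list medians and dashed lines mark 2-fold. Dendritic cell markers centre at 2.04 and macrophage and monocyte markers at -1.36, with T cell genes near 0.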

How the data were processed

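Per the file headers, version 10.7.3.1 of Agilent's Feature Extraction wrote the scanner files, with spatial and multiplicative detrending on and background correction off. They hold intensity values per spot, with no normalization between arrays recorded. The value table deposited by the authors is likewise in intensity units and lay within 1% of the scanner values for 99.6% of probes in both columns, with column medians of 143.7 and 156.8. It was used as an alternative source.

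Control spots and spots flagged as outliers (173 and 209 gene spots, library labelled Nr4a-deficient and wild-type) were left out. No spot was saturated. The processed signal of 39429 probes was put on the log2 scale, repeated spots were averaged, and the 75th percentile of each array (1757 and 2042) was subtracted. A probe counted as well above background if more than 50% of its spots had the scanner software's flag for it, as did 58.6% and 55.5% of probes. The dimmest flagged signal was 51.1 and 73.8, and a bound uses the higher of it and the dim probe's own value, both scaled. For each gene the brightest probe above background on at least 1 array was used. Alternatives used limma 3.58.1 in R 4.3.3 and Python 3.11.15, and the counting of calls was tested on simulated data. The number of arrays limits the precision.

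Members above background are named with their values, and the others by name, except 1 receptor that enters the counts and medians and is not reported here. The members, groups and lists were chosen with earlier results of these data known. Names were matched to RefSeq's table of GRCm38.p6 for all 74 member probes, 66 by accession, 7 by symbol and 1 by synonym. Promoter sequences are RefSeq's on that build and are not mixed with mm9.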

Additional observations from a re-analysis of the deposited data

How the results depend on the processing

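With the spike-ins as the scale, 4 receptors were higher in place of 7, since Cxcr5, Ccr9 and Cx3cr1 (0.90, 0.87 and 0.79) fell short of 2-fold. On that scale 1 signalling gene was higher and 3 lower, in place of 2 and 1, against 3.04% and 8.05% of all genes. With the median as the scale 2 signalling genes were lower, against 5.57% of all genes. With normexp and quantile normalization 0 were lower, against 3.58% of all genes. With both arrays above background 1 signalling gene was higher, against 2.67% of all genes. With no filter on dim probes 13 ligands were higher in place of 5, against 6.86% of all genes. The additions include Ccl12 (1.61) and Ccl20 (2.38), whose bounds became measured values, and the rest were not above background. At 1.5-fold, 5 signalling genes were higher and 4 lower, against 8.76% and 8.67% of all genes. At 3-fold, 1 ligand and 2 receptors were lower, 4 receptors were higher, and 1 signalling gene was higher and 0 lower, against 2.42% and 2.69% of all genes. The other counts stayed within 1.5 times of the main count. Of 8 ligand calls, 7 held under each of the alternatives of scale, background, source, filter and probe that gave a value; Cxcl17 was lost with normexp. Of 11 receptor calls, 8 held; Cx3cr1 was also lost with normexp and with the mean over probes. Calls of Ccl8, Xcl1 and Cxcr2 have no value when both arrays must be above background. No called member changed sign. No paired analysis was possible because each group has 1 sample and leaving out a replicate leaves no comparison. Dim members are limited by signal over background, with a spot SD of 0.29.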

Other observations

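Ligands and receptors of known pairs were set side by side. Both partners were lower in the pair Ccl27a (-1.46) with Ccr10 (-2.90). Ccl8 (at least 17.5-fold higher, or a log2 bound of 2.89 with normexp and quantile normalization) and its receptor Ccr8 (-1.39) went opposite ways. Of 30 listed pairs, 15 had both partners detected. In 4 pairs both partners lay within 2-fold, among them Ccl19 with Ccr7 and Cxcl10 with Cxcr3. The receptors Ccr2, Cxcr2, Cx3cr1 and Cxcr5 were higher while ligands of each (Ccl2, Cxcl1, Cx3cl1 and Cxcl13) were not above background. Ccl12, another ligand of Ccr2, was detected in the library labelled Nr4a-deficient alone. Cx3cr1 rests on 1 probe, and on the spike-in scale Cx3cr1 (0.79) and Cxcr5 (0.90) fell short of 2-fold. Family genes whose names fall outside the pattern, Pf4, Ppbp, Ccbp2 (an atypical receptor) and Darc, were not above background on either array.

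Nr4a receptors bind the letters AAAGGTCA as monomers, so these were searched on both strands in RefSeq promoters (250 bases before to 50 after the start site, GRCm38.p6). They stood in 495 of 32851 promoters of all genes (1.51%). Of 48 promoters for 42 member genes, 1 held them, that of Ccl6, which read 1727 and 1023 (0.97). The run begins 88 bases before the start site. It is shown here with its flanks, the letters in capitals as they read on this strand, chr11:83593118-83593225, minus strand.
Ccl6: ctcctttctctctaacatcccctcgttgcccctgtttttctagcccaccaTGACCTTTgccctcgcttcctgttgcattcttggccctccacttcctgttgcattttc
A match is a description of letters and does not show binding, and no match says only that the letters are not in this window.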
